A study of Mus musculus with 3 samples.

Results

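The genes described here are 9 genes of the tight junction, chosen by symbol: the claudins Cldn1, Cldn4 and Cldn7, the MARVEL-domain proteins Ocln and Marveld2, the adhesion molecule F11r, and the cytoplasmic plaque proteins Tjp1, Tjp3 and Cgn. All 9 were found among the 31053 genes of the deposited matrices. The cells were epidermal cells of ear skin from C57BL/6N mice aged 9 weeks, an inbred strain, with no treatment, mutation or transgene given. They were released by dispase, then trypsin and EDTA, from the basal side of the lifted sheet, frozen, and profiled in 3 droplet libraries (replicates 1, 2 and 3 of 1 group) that count the 5' ends of transcripts as unique molecular identifiers (UMIs). Nothing in the labels says whether the replicates came from separate animals, or their sex, so p-values here may measure only the spread between libraries.

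Tight junctions are belts of sealing contacts between neighbouring epithelial cells. Claudins form the paired strands and set which solutes pass. Occludin and its relative tricellulin lie in the strands and at the corners where cells meet, junctional adhesion molecules lie beside them, and the zonula occludens proteins and cingulin tie the strands to actin. In the mouse epidermis the sealed junctions are found in the granular layer, below the cornified layer, and epidermal barrier function after birth depends on Cldn1.

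Cells were sorted into groups by genes that are not among the 9. Basal cells had Krt5 and Krt14 at 0.5% or more of their UMIs and Krt1 and Krt10 under 0.5%. Spinous cells had Krt1 and Krt10 at 0.5% or more and Lor (loricrin) under 1%, and granular cells had Lor at 1% or more. Follicle cells had at least 2 of Sox9, Fst, Lgr5, Cd34 and Wif1, and Langerhans cells, the dendritic cells of the epidermis, had at least 10 UMIs of Cd74 and H2-Aa. Of 6078 barcodes, 5340 passed the filters, with 122 follicle cells and 47 Langerhans cells beside 2311 basal, 2294 spinous and 423 granular cells. A library gave 944, 2212 and 2184 cells and 15527509, 24071995 and 27501411 UMIs in replicates 1, 2 and 3. Median depth was 8454 UMIs per basal cell, 14717 per spinous cell and 19882 per granular cell. Replicate 1 held no Langerhans cell, so that group rests on 2 libraries. Between libraries, 16 barcodes occurred more than once, 11 of them among the cells kept.

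The names of the groups were set against markers that the gates did not use. The summed level of 5 basal markers (Col17a1, Itga6, Itgb4, Dst and Lamb3) was 2390 to 2573 CPM (UMIs per 1000000 UMIs of the same library and group) in basal cells, 370.1 to 428.6 in spinous cells and 44.1 to 52.5 in granular cells. Flg, Flg2, Ivl and 3 Lce1 genes summed to 9.09 to 30.3 CPM in basal cells, 129.5 to 308.4 in spinous cells and 25606 to 37373 in granular cells. The 5 spinous markers (Krtdap, Sbsn, Dsg1a, Dsc1 and Dmkn) did not set spinous cells apart from granular ones, at 48991 to 53675 in granular cells, against 21197 to 22628 in spinous cells. The 5 follicle markers summed to 5301 to 7420 in follicle cells, against 1199 to 1461 in basal cells, and the 5 Langerhans markers to 15053 to 17408 in Langerhans cells, against 117.1 to 143.9 in basal cells. Markers of T cells, fibroblasts, melanocytes and Merkel cells summed to at most 18.4 CPM in any library of the 3 layers, and none of the 5 T cell markers was detected in follicle or Langerhans cells. Endothelial markers reached 20.0 CPM in granular cells, all from Pecam1, with Cdh5 and Cldn5 at 0.

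The promoters of 3 genes are shown because, of the genes tested between granular and spinous cells, Cgn, Marveld2 and Cldn4 had the largest absolute log2 folds with TMM, Cgn and Cldn4 upward and Marveld2 downward. Each run gives the 250 bases before the annotated start in GRCm38.p6 (RefSeq), 5′ to 3′ on the gene's own strand, which is the minus strand for all 3. Capitals mark TGANTCA, the core site of AP-1 factors, and GGGNGGG, a core of sites bound by Krüppel-like factors, each on either strand.
Cldn4 (chr5:134946935-134947184): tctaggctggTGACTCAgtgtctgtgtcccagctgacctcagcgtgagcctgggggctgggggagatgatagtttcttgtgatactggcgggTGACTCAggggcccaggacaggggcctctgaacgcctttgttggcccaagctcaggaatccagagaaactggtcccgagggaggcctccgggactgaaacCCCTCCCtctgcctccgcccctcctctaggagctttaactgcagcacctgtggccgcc
Cgn (chr3:94786483-94786732): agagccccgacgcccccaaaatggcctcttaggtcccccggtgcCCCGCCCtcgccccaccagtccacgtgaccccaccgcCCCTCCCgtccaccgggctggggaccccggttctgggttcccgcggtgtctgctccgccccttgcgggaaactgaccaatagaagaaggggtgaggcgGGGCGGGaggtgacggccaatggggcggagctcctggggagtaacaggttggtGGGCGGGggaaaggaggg
Marveld2 (chr13:100616972-100617221): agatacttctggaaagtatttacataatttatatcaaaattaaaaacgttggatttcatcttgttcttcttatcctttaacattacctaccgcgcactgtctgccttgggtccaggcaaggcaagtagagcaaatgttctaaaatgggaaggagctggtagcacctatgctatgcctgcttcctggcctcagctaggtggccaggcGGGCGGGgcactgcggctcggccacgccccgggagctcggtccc

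Cldn4 held 2 copies of TGACTCA, which begin 240 and 158 bases before the start. Among the 9 genes, with 13 annotated starts, the letters TGANTCA also occurred once before F11r and before no other gene, and 6.75% of 32851 promoters of the same length hold them. GGGNGGG occurred before 8 of the 9 genes, all but F11r, and 4 times before Cgn, where 44.8% of all promoters hold it. AACCGGTT, a palindrome bound by Grainyhead-like factors, occurred before none of the 9 and in 0.116% of all promoters. CANNTG occurred before 8 of the 9 and in 66.2% of all promoters, and TATAAA before Marveld2 alone and in 12.4%. Each motif was sought on both strands and on its own, so matches of different motifs may overlap. The letters say nothing about binding in these cells.

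Levels are given in CPM, and differences were tested in edgeR on summed counts with TMM scaling. TMM aims to set the bulk of genes level between groups, but did not do so in every comparison. With it the median log2 fold of all genes was 0.01 for spinous over basal and -0.06 for follicle over basal. It was -0.36 for granular over spinous, -0.38 for granular over basal and -0.33 for Langerhans over basal. The choice of scaling moved the values. With plain total UMIs in place of TMM, the median log2 fold of all genes moved by -0.37 for spinous over basal, by -0.67 for granular over spinous and by -1.06 for granular over basal. The cause of these shifts was not tested; Lor averaged 43.3 CPM in basal cells, 353.0 in spinous cells and 61762 in granular cells. The TMM values are therefore relative to the level that TMM sets, which was not that of the median gene in every comparison. The levels in CPM are shares of all UMIs. Where the 2 scales differ in direction or call for 1 of the 9 genes between layers, both are given.

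Cldn1 (chr16:26356642-26371841, minus strand, GRCm38), the claudin that epidermal barrier function requires, was found in every layer. Its level was 59.6, 93.2 and 57.5 CPM in basal cells, 141, 147 and 136 in spinous cells and 183, 200 and 222 in granular cells of replicates 1, 2 and 3. No library of one layer overlapped one of another layer. Cldn1 was 2.64-fold higher in spinous than in basal cells (log2 1.40 ± 0.14 SE, edgeR adjusted p = 4.67e-09) and 2.30-fold higher in granular than in spinous cells (log2 1.20 ± 0.14, adjusted p = 5.92e-08). After each cell was thinned to 2000 UMIs, 13.4% of basal, 21.3% of spinous and 28.3% of granular cells, over all libraries, had a Cldn1 UMI. Without thinning the shares were 41.2% in basal, 72.3% in spinous and 74.5% in granular cells.

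Cldn4 (chr5:134945119-134946934, minus strand), a claudin of many epithelia, was nearly absent from basal cells. Its level was 0.546, 1.44 and 2.59 CPM in basal cells, which is 35 UMIs in 29 of 2311 cells, then 220, 263 and 221 in spinous cells and 606, 649 and 683 in granular cells. The layers were far apart in every library. Cldn4 was 185-fold higher in spinous than in basal cells (log2 7.53 ± 0.38, adjusted p = 2.48e-14; 6.84 after thinning and 8.21 without replicate 3) and 4.41-fold higher in granular than in spinous cells (log2 2.14 ± 0.24, adjusted p = 4.69e-08). The thinned share of cells with a UMI was 0.369% in basal, 22.5% in spinous and 61.2% in granular cells. Without thinning, 1.25% of basal, 48.6% of spinous and 77.8% of granular cells had a UMI. Among 21 T cells, a type that should lack the gene, none had one, which allows up to 16.1% (exact 95% bound) at a median depth of 2931 UMIs.

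Cldn7 (chr11:69964779-69967885, plus strand), a claudin that partners with EpCAM in simple epithelia, was close to undetected: 15 UMIs in 15 of the 5340 cells. Of these, 12 lay in basal cells (3, 5 and 4 UMIs in replicates 1, 2 and 3), 2 in spinous cells and 1 in a follicle cell. Granular cells had 0 of 8553418 UMIs, which allows a level of up to 0.351 CPM. The gene did not pass the low-count filter and was not tested.

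Ocln (chr13:100496507-100552718, minus strand) encodes occludin. It had 6.36, 6.63 and 4.83 CPM in basal cells, 17.8, 18.2 and 15.4 in spinous cells and 35.6, 41.6 and 31.3 in granular cells, again without overlap between layers. The gene was 3.76-fold higher in spinous than in basal cells (log2 1.91 ± 0.14, adjusted p = 3.26e-11) and 3.39-fold higher in granular than in spinous cells (log2 1.76 ± 0.13, adjusted p = 1.42e-11).

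Marveld2 (chr13:100595957-100616971, minus strand) encodes tricellulin, the protein of contacts between 3 cells, and lies 43238 bases from Ocln on the same chromosome and strand. It followed the opposite course in the upper step. Its level was 12.4, 10.8 and 10.7 CPM in basal cells, 26.0, 20.7 and 20.4 in spinous cells, but 3.56, 3.56 and 1.97 in granular cells. The gene was 2.55-fold higher in spinous than in basal cells (log2 1.35 ± 0.12, adjusted p = 1.06e-09). In granular cells it fell 4.76-fold relative to spinous cells (log2 -2.25 ± 0.23, adjusted p = 9.60e-09; -3.15 without the deepest cells), and also below basal cells (log2 -0.90 ± 0.27, adjusted p = 0.0048), although this last call was lost without replicate 3 (log2 -0.70, adjusted p = 0.086). The granular value rests on 24 UMIs (after thinning the gene did not pass the low-count filter there), and the thinned share of cells with a UMI was 2.26% in basal, 3.80% in spinous and 0.732% in granular cells. Without thinning the shares were 9.56% in basal, 25.4% in spinous and 4.49% in granular cells.

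F11r (chr1:171437535-171464603, plus strand), which encodes junctional adhesion molecule A, differed least in mean level between the 3 layers among the 8 genes tested. It had 72.7, 83.4 and 57.7 CPM in basal cells, 65.7, 71.0 and 60.0 in spinous cells and 43.3, 50.5 and 40.9 in granular cells. Basal and spinous libraries overlapped, and every granular library lay below every spinous one. The direction depended on the scale: spinous over basal was log2 0.27 ± 0.11 with TMM (adjusted p = 0.038) and -0.11 with total UMIs (adjusted p = 0.368). Granular over spinous was log2 0.14 ± 0.13 with TMM (95% interval -0.13 to 0.42, adjusted p = 0.355) and -0.54 with total UMIs (adjusted p = 0.00065). In that comparison F11r was called higher with median-ratio factors (log2 0.36, adjusted p = 0.0164) and with DESeq2 (log2 0.35, adjusted p = 0.0441). Granular over basal was called in opposite directions, higher with TMM (log2 0.41 ± 0.14, adjusted p = 0.00869) and lower with total UMIs (log2 -0.65, adjusted p = 8.89e-05). The TMM call for granular over basal was lost without replicate 3 (log2 0.25, adjusted p = 0.125), without the deepest cells (0.19, adjusted p = 0.290), with stricter gates (0.30, adjusted p = 0.0588) and after thinning (0.10, adjusted p = 0.730). The TMM call for spinous over basal also missed the threshold in the fit without the library block (log2 0.26, adjusted p = 0.150), without replicate 1 (log2 0.27, adjusted p = 0.0925) and without replicate 3 (log2 0.17, adjusted p = 0.198). It was lost too without Scrublet doublets (0.27, adjusted p = 0.0532), without the deepest cells (0.21, adjusted p = 0.122) and after thinning (-0.039, adjusted p = 0.847). The same held with median-ratio factors (0.15, adjusted p = 0.191) and with DESeq2 (0.15, adjusted p = 0.373).

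Tjp1 (chr7:65296165-65527781, minus strand) encodes zonula occludens 1, the scaffold that binds claudin tails and actin. Its level was 13.1, 12.5 and 12.1 CPM in basal cells, 26.6, 25.6 and 30.1 in spinous cells and 17.8, 12.5 and 16.3 in granular cells. Spinous libraries were above those of both other layers. Tjp1 was 2.85-fold higher in spinous than in basal cells (log2 1.51 ± 0.12, adjusted p = 9.00e-11). Granular over spinous was log2 -0.16 ± 0.15 with TMM (95% interval -0.47 to 0.15, adjusted p = 0.366) and -0.85 with total UMIs (adjusted p = 1.56e-05). Granular over basal was log2 1.35 ± 0.17 with TMM (adjusted p = 2.02e-07) and 0.28 with total UMIs (adjusted p = 0.114).

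Tjp3 (chr10:81273207-81291581, minus strand) encodes zonula occludens 3, a second scaffold of the same family. Its annotated span overlaps Apba3 on the opposite strand, and the sources used here do not say whether reads were counted by strand. Tjp3 had 16.7, 11.2 and 17.7 CPM in basal cells, 53.2, 53.7 and 56.8 in spinous cells and 46.9, 53.4 and 48.8 in granular cells. Spinous and granular libraries overlapped in level, and both lay above all basal ones. Tjp3 was 4.68-fold higher in spinous than in basal cells (log2 2.23 ± 0.14, adjusted p = 8.52e-13). Granular over spinous was log2 0.55 ± 0.14 with TMM (adjusted p = 0.00112) but -0.14 with total UMIs (adjusted p = 0.387). The call was also lost with stricter gates (log2 0.27, adjusted p = 0.0746) and after thinning (log2 0.066, adjusted p = 0.866).

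Cgn (chr3:94760069-94786492, minus strand) encodes cingulin, which links the plaque to the cytoskeleton. Like Cldn4 it was almost missing from basal cells, with 0.909, 1.01 and 1.06 CPM there, 42.8, 59.4 and 42.5 in spinous cells and 326, 306 and 293 in granular cells. The 3 layers did not overlap. Cgn was 60.4-fold higher in spinous than in basal cells (log2 5.92 ± 0.27, adjusted p = 5.83e-15; 4.86 after thinning) and 10.3-fold higher in granular than in spinous cells (log2 3.36 ± 0.15, adjusted p = 2.05e-15). The thinned share of cells with a UMI was 0.323% in basal, 7.55% in spinous and 46.1% in granular cells. Without thinning the shares were 0.822% in basal, 29.6% in spinous and 87.2% in granular cells.

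**Figure D1:**
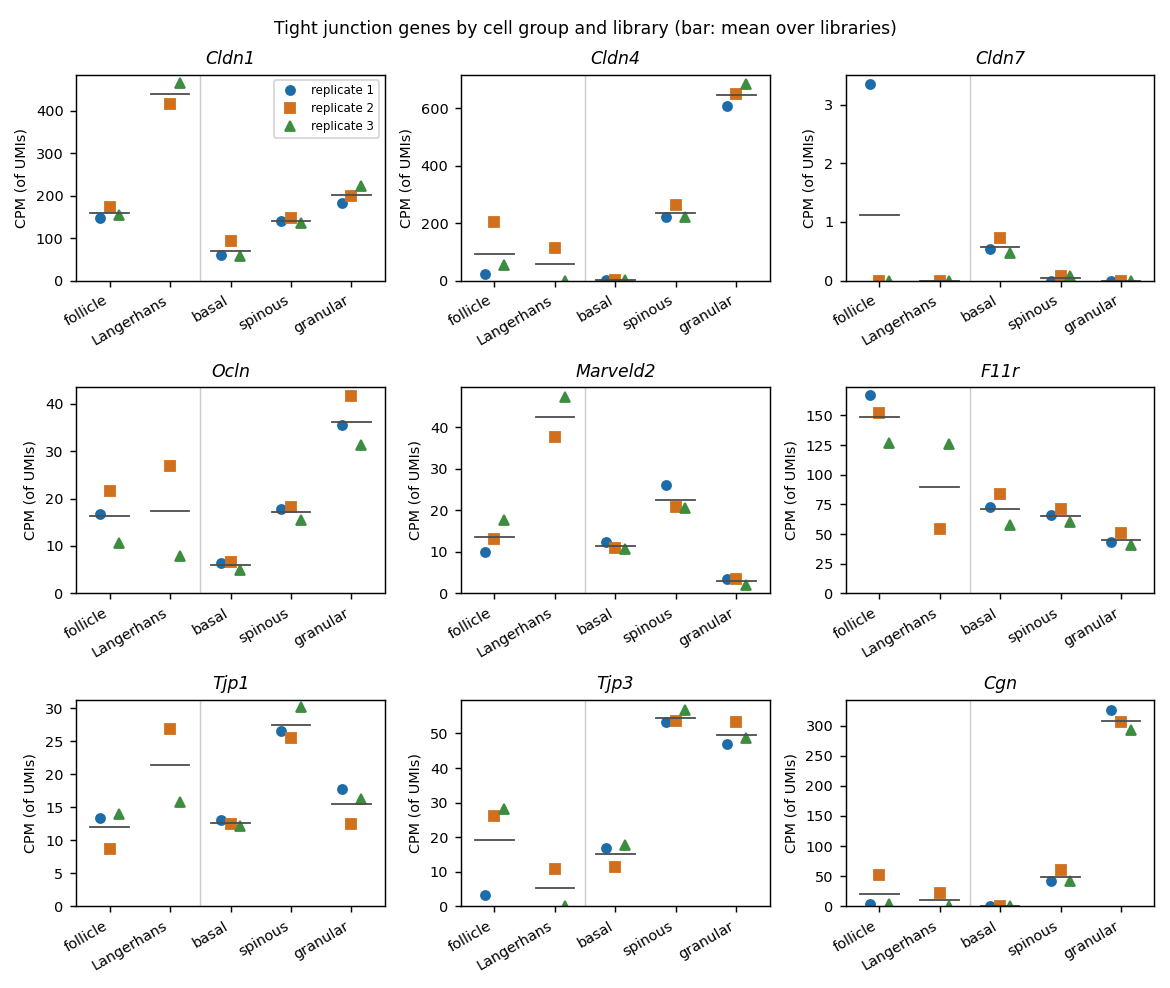
CPM of UMIs (y axis, from 0, own scale for each gene) of the 9 genes in follicle, Langerhans, basal, spinous and granular cells (x axis); each point is 1 library and each bar the mean over libraries. Cldn4 and Cgn are near 0 in basal cells and highest in granular cells, Marveld2 is lowest in granular cells, and F11r is highest in follicle cells.

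Counted over the 8 genes tested, all 8 were higher with TMM in spinous than in basal cells and none lower (with total UMIs 7 and 0). The F11r call among them was lost under many of the other settings, as given above. Of all 11957 genes tested, 33.3% were called higher and 32% lower (with total UMIs the higher share of calls was 29.9%, against 51.0% with TMM). The median log2 fold was 1.71 over the 8 and 0.01 over all genes. For granular over spinous, 5 of 8 were higher (Cldn1, Cldn4, Ocln, Tjp3 and Cgn) and 1 was lower (Marveld2). The background was 27.3% higher and 38% lower, and the medians were 0.87 and -0.36. Total UMIs gave 4 higher and 3 lower, with Tjp3 no longer called and F11r and Tjp1 lower. The log2 folds of the others were then 0.52 for Cldn1, 1.47 for Cldn4, 1.08 for Ocln, 2.69 for Cgn and -2.93 for Marveld2, all still called, and the higher share of all calls was 22.3%, against 41.8% with TMM. For granular over basal, 7 were higher and 1 lower, where 33.9% of all genes were higher and 43.5% lower, with medians of 2.69 and -0.38. Total UMIs gave 5 higher and 2 lower there, Marveld2 and F11r, and a higher share of 24.5% among all calls, against 43.8% with TMM. These 3 comparisons share libraries and cells, so their counts are not separate evidence.

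**Figure D2:**
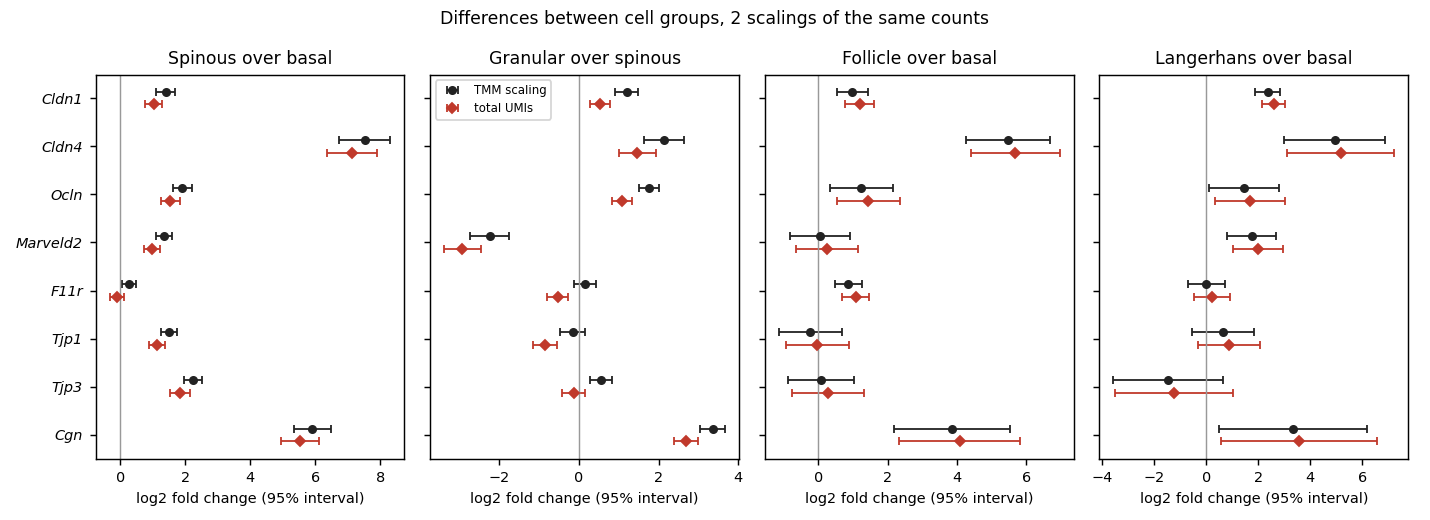
Log2 fold changes (x axis) of the 8 genes tested in 4 comparisons, with 95% intervals, scaled with TMM (circles) and with total UMIs (diamonds). In granular over spinous cells, F11r and Tjp3 lie on opposite sides of 0 with the 2 scalings, and Marveld2 is at -2.25 with TMM.

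Within the layers the genes did not keep 1 level, and the groups' means hide a late fall. Basal and spinous cells were cut into 6 bins by their Krt1 and Krt10 share and granular cells into 4 bins by their Lor share. Bins with under 20 cells in a library were left out, which removed replicate 1 from all granular bins and replicates 1 and 2 from the bin with Krt1 and Krt10 at 4% or more. These values are a description with no test.

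Cldn4 had 1.36 CPM in the basal bin with the least Krt1 and Krt10 and 2.35 in the next. It had 92.9, 199 and 397 in the spinous bins of 0.5 to 1%, 1 to 2% and 2 to 4%, 637 in the 1 library of the last spinous bin, and 977, 824, 485 and 45.4 in the granular bins of rising Lor. In CPM it thus peaked at the start of the granular group, and in UMIs per cell in the next bin, of Lor at 3 to 6% (14.3 and 18.9 in replicates 2 and 3). It was lowest of that group in cells with Lor at 10% or more. In the first spinous bin the libraries ranged widely, between 17.5 and 145 CPM. Cgn had 0.791 and 2.01 in the basal bins, 19.7, 35.4, 91.8 and 138 in the spinous bins, and 347, 346, 265 and 167 in the granular bins.

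Cgn fell less than Cldn4 in the last bin. In cells with Lor at 10% or more, it was at 42.9% (replicate 2) and 53.1% (replicate 3) of its level in cells with Lor at 1 to 3%. Cldn4 was at 2.53% and 6.61%, Tjp3 at 1.93% and 9.58%, and Cldn1 at 5.12% and 17.1%. Ocln was at 15.1% and 42.7%, F11r at 21.1% and 27.6%, and Tjp1 at 10.8% and 21.5%. Marveld2 had no UMI in the last bin of either library. The falls were also seen in UMIs per cell. Cldn4 averaged 0.757 UMIs per cell at Lor of 10% or more, against 15.5 at Lor of 1 to 3%, and Cgn 2.86 against 5.49. The last bin held 25 and 27 cells, and its median depth of 20236 and 16555 UMIs was close to the 16334 and 17902 of the first granular bin. At such like depths, UMIs per cell and CPM are not separate measures, and the part of other genes' shares in the falls was not tested.

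The other genes turned at different points of the series. Marveld2 peaked in the spinous bin of 1 to 2% in all 3 libraries in CPM, with a mean of 24.7. In UMIs per cell replicate 1 peaked there, and replicates 2 and 3 in the bin of 2 to 4% (0.314 and 0.351). Marveld2 had 7.13 CPM in the first granular bin. Tjp1 climbed through the spinous bins to a mean of 34.2 in the bin of 2 to 4% and 49.7 in the 1 library of the last spinous bin, and had 26.1 in the first granular bin and 4.55 in the last. Tjp3 went on to 104 in the first granular bin and then 52.6, 21.6 and 5.71. Cldn1 had 68.1 and 80.5 in the basal bins and 82.6 in the first spinous bin, and then 130, 196 and 320 across the other spinous bins and 297, 268, 148 and 33.0 across the granular bins. Ocln was highest in CPM in the first granular bin, at 47.5, in both libraries that had it, but per cell at Lor of 6 to 10% in replicate 2 (0.935) and of 3 to 6% in replicate 3 (0.800). In CPM F11r dipped to 53.5 in the first spinous bin, against 69.1 in the upper basal bin, and returned to 84.0 in the bin of 2 to 4%. That order in CPM was seen in all 3 libraries. In UMIs per cell the first of these steps was a fall in replicate 1 alone, from 0.939 to 0.894. It was a rise in replicate 2 (0.587 to 0.713) and replicate 3 (0.433 to 0.536).

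**Figure D3:**
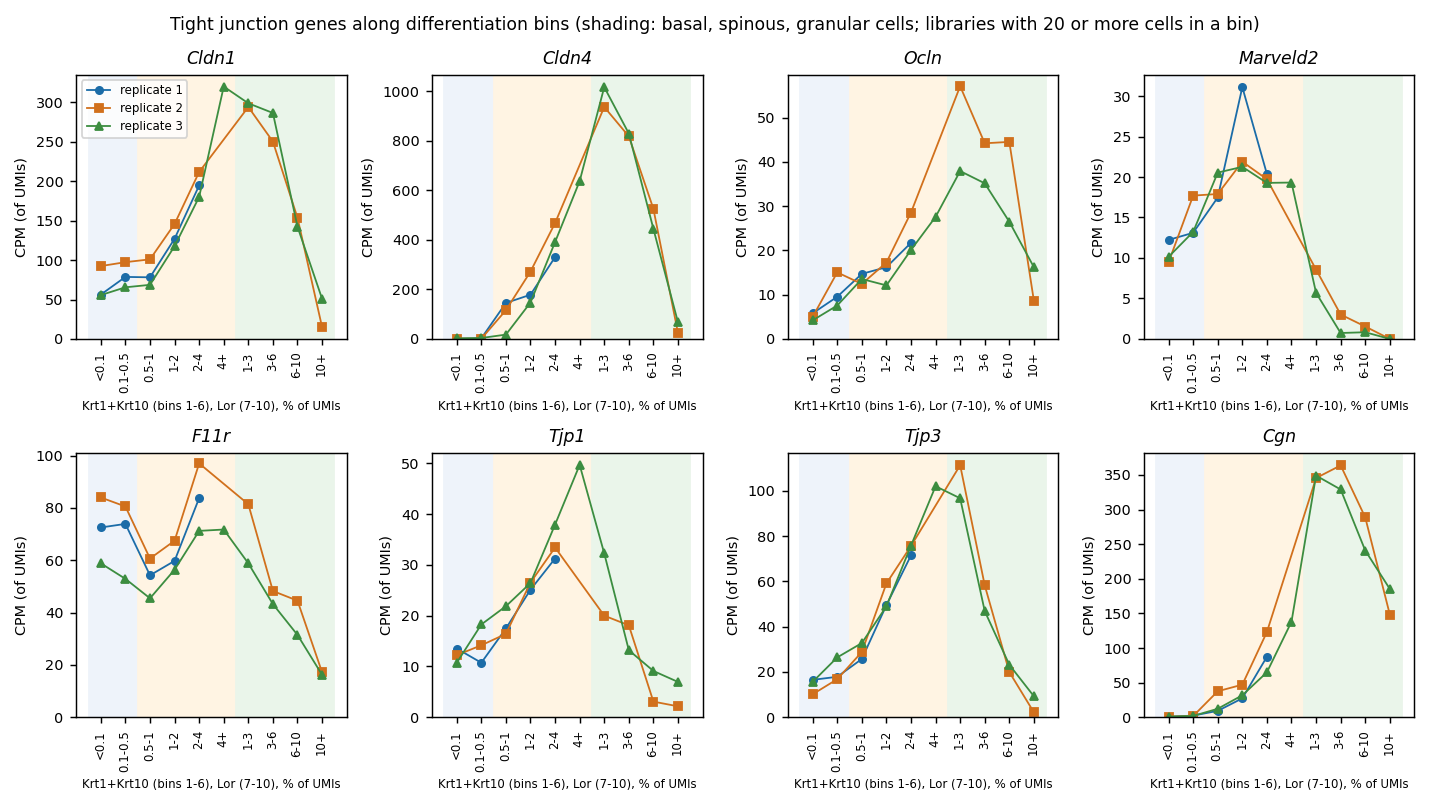
CPM (y axis, from 0) of 8 genes along bins of differentiation (x axis: Krt1 and Krt10 share for bins 1 to 6, Lor share for bins 7 to 10), with 1 line per library and shading for basal, spinous and granular cells. Cldn4, Cgn, Ocln and Cldn1 climb and then fall within the granular cells, and Marveld2 peaks earlier, in the spinous bin of 1 to 2%.

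Follicle cells, which were small in number, had more F11r and Cldn1 than basal cells. F11r had 167, 152 and 126 CPM in follicle cells, against 72.7, 83.4 and 57.7 in basal cells, and was higher in all 3 libraries (log2 0.87 ± 0.19, adjusted p = 0.00223). Follicle cells had the highest mean F11r of the 5 groups, but the lowest follicle library (126.3 CPM, 36 UMIs) was level with the higher of the 2 Langerhans libraries (126.0 CPM, 16 UMIs). Cldn1 had 147, 173 and 154 in follicle cells, against 59.6, 93.2 and 57.5 in basal cells (log2 0.98 ± 0.22, adjusted p = 0.00264). With stricter gates (3 follicle genes) the difference for Cldn1 was 0.14 on the log2 scale (adjusted p = 0.932), without cells of several gates 0.85 (adjusted p = 0.0807) and after thinning 0.81 (adjusted p = 0.0541), and with the mitochondrial limit at 5% that for F11r was 0.29 (adjusted p = 0.723). Of the 122 follicle cells, 75 also met the basal gate. Markers of other cell types were also higher in follicle than in basal libraries. The 4 sebocyte markers summed to 381.5 to 2382 CPM in follicle cells, mostly Krt79 and with Cidea at 0, against 73.5 to 101.3 in basal cells. The 4 melanocyte markers summed to 3.35 to 115.8 in follicle cells, with Mlana at 0, against 0.576 to 2.24 in basal cells. The 4 fibroblast markers summed to 26.0 to 103.7 in follicle cells, with Lum at 0, against 0.144 to 18.4 in basal cells. Their part in the follicle results was not tested.

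Cldn4 and Cgn were also called higher in follicle than in basal cells, unevenly between libraries. Cldn4 had 23.4, 204 and 52.6 CPM (7, 47 and 15 UMIs) in follicle cells, against 0.546, 1.44 and 2.59 in basal cells (log2 5.47 ± 0.59, adjusted p = 3.78e-07). In replicate 2, 38 of its 47 UMIs lay in 2 cells that also met a spinous or granular gate. With a stricter follicle gate Cldn4 was no longer called (log2 1.29, adjusted p = 0.841). Cgn had 3.35, 52.0 and 3.51 CPM in follicle cells (1, 12 and 1 UMIs), against 0.909, 1.01 and 1.06 in basal cells (log2 3.86 ± 0.81, adjusted p = 0.00153), with 11 of the 12 UMIs in the same 2 cells. Without such cells Cgn was no longer called (log2 1.73, adjusted p = 0.315), nor was it without replicate 2 (log2 1.59, adjusted p = 0.528). Spinous markers summed to 3961 to 11587 CPM in follicle cells, against 1166 to 2262 in basal cells, and their part in these results was not tested. Ocln (log2 1.24 ± 0.44, adjusted p = 0.0668), Marveld2 (0.04 ± 0.42), Tjp1 (-0.24 ± 0.44) and Tjp3 (0.08 ± 0.46) did not pass, each with at most 15 UMIs in follicle cells. That made 4 of 8 higher and none lower, where 7.82% of all genes were called higher and 6.09% lower. With total UMIs 5 were higher, Ocln among them (log2 1.44, adjusted p = 0.0308), and the higher share of all calls was 76.1%, against 56.2% with TMM.

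In CPM, Langerhans cells carried the highest Cldn1 of all groups, though not on every scale. Granular over basal was log2 2.60 with TMM, against 2.35 for Langerhans over basal, but 1.54 against 2.59 with total UMIs. Mean UMIs per cell were 4.43 in granular and 2.89 in Langerhans cells, and the 2 groups were not tested against each other. The Cldn1 level was 415 and 465 CPM in Langerhans cells of replicates 2 and 3, against 93.2 and 57.5 in basal cells of the same libraries. The gene was 5.11-fold higher (log2 2.35 ± 0.24, adjusted p = 4.36e-08), and it was called higher under all 16 other settings tried, with log2 values between 2.09 and 2.73. A UMI was found in 20 of 26 and 18 of 21 cells, and only 2 of the 77 UMIs in replicate 2 came from cells that also met a spinous or granular gate. Thinned to 2000 UMIs, 48.9% of Langerhans cells had one, against 13.4% of basal cells.

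Cldn4 and Cgn differed from Cldn1 in that respect. Cldn4 had 113 and 0 CPM in Langerhans cells of replicates 2 and 3 (21 and 0 UMIs), and 19 of the 21 lay in 2 cells that also met a suprabasal gate. It was called higher than in basal cells with these cells (log2 4.93 ± 0.93, adjusted p = 0.000322) and not without them (log2 1.82, adjusted p = 0.388). All 4 Cgn UMIs of Langerhans cells lay in the same cells, and Cgn was not called (adjusted p = 0.0902). The spinous markers summed to 9882 CPM in the Langerhans cells of one library and 228.4 in the other. The part of the 2 cells with a suprabasal gate in that difference was not tested.

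Marveld2 had 37.7 and 47.3 CPM in Langerhans cells, against 10.8 and 10.7 in basal cells of the same libraries (log2 1.75 ± 0.45, adjusted p = 0.00624). The value rests on 7 and 6 UMIs, and the call was lost without replicate 2 (log2 1.97, adjusted p = 0.084) and without replicate 3 (log2 1.61, adjusted p = 0.111). F11r had 53.9 and 126 in Langerhans cells, against 83.4 and 57.7 in basal cells, and was not called (95% interval of the log2 fold -0.70 to 0.70). In all, 3 of 8 genes were higher and none lower, where 10.6% of all genes were higher and 11.5% lower. With total UMIs the count was the same, and the higher share of all calls was 60.5%, against 48.1% with TMM.

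Ranked by mean level in CPM, Cldn1 ran from Langerhans cells through granular, follicle and spinous cells to basal cells, and no neighbours in that order overlapped. Follicle and spinous cells parted only by a hair (lowest follicle library 147.2 CPM, highest spinous library 146.6). The TMM log2 folds over basal cells gave another order: 2.60 for granular, 2.35 for Langerhans, 1.40 for spinous and 0.98 for follicle cells. Ocln was highest in granular cells without overlap, and lowest in basal cells without overlap, while Langerhans, spinous and follicle cells between them overlapped. For Cldn4 the order was granular, spinous, follicle, Langerhans and basal, and the last 3 overlapped with their neighbours. Marveld2 was highest in Langerhans cells, then spinous, follicle, basal and granular cells, with overlap only between follicle and basal cells. Tjp1 was highest in spinous cells, and every neighbouring pair in its order overlapped. Tjp3 was highest in spinous cells, followed by granular cells with overlap, then follicle, basal and Langerhans cells. Cgn was highest in granular cells without overlap, and each later neighbour in its order (spinous, follicle, Langerhans and basal cells) overlapped with the next. F11r ran from follicle through Langerhans, basal and spinous cells to granular cells. Granular cells stood clear of the next group, and follicle cells only by a hair (lowest follicle library 126.3 CPM, highest Langerhans library 126.0).

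Among basal cells, 387 cycling cells were set apart by 11 genes of the cell cycle at 0.1% or more of their UMIs. Ocln had 2.31, 0.891 and 1.77 CPM in cycling cells, against 7.62, 7.74 and 5.94 in the other basal cells (log2 -2.05 ± 0.43, adjusted p = 0.00064), on 8 UMIs in all in cycling cells. Cldn1 had 34.7, 56.1 and 39.8 in cycling cells, against 67.4, 100.4 and 63.9 in the others (log2 -0.87 ± 0.11, adjusted p = 2.02e-06). Both were lower in all 3 libraries. F11r had 60.9, 69.5 and 52.6 in cycling cells, against 76.4, 86.1 and 59.6 in the others (log2 -0.33 ± 0.10, adjusted p = 0.0140). The F11r call was lost in the fit without the library block (log2 -0.37, adjusted p = 0.0981) and with DESeq2 (-0.32, adjusted p = 0.267). It was also lost without replicate 1 (-0.30, adjusted p = 0.0878) and without replicate 2 (-0.31, adjusted p = 0.0658). Marveld2, Tjp1 and Tjp3 did not pass, and Cldn4, Cldn7 and Cgn were too low to test. Of 6 genes tested, 3 were lower and none higher, where 19.8% of 9936 genes were lower and 21.3% higher.

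A wider list of 72 junction genes in 7 groups was read beside the 9, of which 71 were in the matrices and 57 were tested. In spinous over basal cells, 31 of the 57 were higher and 10 lower (27 and 19 with total UMIs). For granular over spinous cells, 26 were higher and 13 lower (22 and 23). Of all 11957 genes, 33.3% were higher and 32% lower with TMM in spinous over basal cells. In granular over spinous cells the shares were 27.3% and 38%. With total UMIs, 2520 genes were higher and 5907 lower in the first of these comparisons, and 2030 and 7079 in the second. The list counts below stand beside these shares. With TMM some were near them, such as the counts of plaque and signalling genes in spinous over basal cells.

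The partners of claudins and the membrane protease cascade gave the most even counts: 7 of 7 were higher in both steps with TMM. With total UMIs 6 of 7 were higher in the granular step, where Spint2, named after its values were seen, was at log2 0.53 with TMM and -0.15 with total UMIs. Prss8 (prostasin, a membrane-bound serine protease) was higher by log2 2.95 in spinous over basal cells (adjusted p = 2.86e-10) and by 5.01 in granular over spinous cells (adjusted p = 1.29e-19). It averaged 1.41 ± 0.32 CPM in basal, 8.81 ± 1.29 in spinous and 175.8 ± 8.7 in granular cells (SD, n = 3). Spint1, an inhibitor of the protease matriptase, was higher by log2 2.44 in the first step, and Tmprss13, another membrane protease, by 3.49 in the second. Epcam, which binds Cldn7 in other epithelia, averaged 799.1 ± 84.5 CPM in granular and 135.0 ± 26.6 in spinous cells (log2 3.24, adjusted p = 2.82e-15).

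Among the other claudins, Cldn23 was, like Cldn4, higher in both steps. It averaged 0.323 ± 0.440 CPM in basal, 31.0 ± 5.9 in spinous and 147.2 ± 8.8 in granular cells (log2 6.63 for spinous over basal and 2.91 for granular over spinous, adjusted p = 8.16e-14 and 7.96e-14). Cldn3 was higher in granular than in spinous cells by log2 4.74 (adjusted p = 3.29e-09), and Cldn12 was lower (log2 -2.11, adjusted p = 0.00174). Of the 15 listed, 5 were tested: 2 were higher and 1 lower in the first step, and 3 higher and 1 lower in the second.

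Lsr (angulin 1), which draws tricellulin to the contacts of 3 cells, did not follow Marveld2. It was higher in spinous than in basal cells (log2 2.08, adjusted p = 2.76e-14) and higher again in granular than in spinous cells (log2 1.10, adjusted p = 1.18e-09), where Marveld2 fell. Its level was 50.1 ± 1.8 CPM in basal, 163.8 ± 18.3 in spinous and 221.0 ± 21.2 in granular cells. Marveld1 and Marveld3, other MARVEL-domain genes, were lower in both steps, Marveld1 by log2 -2.01 and then -1.98, Marveld3 by -0.46 and then -1.87. In the MARVEL and angulin list that gave 1 higher and 2 lower of 4 tested in each step (with total UMIs 1 and 3 in the first).

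Among nectins and other adhesion genes, 4 of 5 were higher and none lower in spinous over basal cells (4 and 1 with total UMIs), led by Nectin4 (log2 5.98) and Nectin3 (4.47). In granular over spinous cells 3 were higher and 1 lower (3 and 2 with total UMIs): Nectin3 went up further (log2 4.79, adjusted p = 3.42e-17) and Nectin1 fell (log2 -2.19, adjusted p = 1.61e-13). Cxadr, the coxsackievirus and adenovirus receptor, was higher in the second step by log2 1.31.

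The plaque and signalling list split evenly in the first step, with 5 of 15 higher and 5 lower (4 and 9 with total UMIs). Amotl2, an angiomotin relative, was higher (log2 2.81), while the multi-PDZ scaffold Mpdz (-3.63) and the cingulin relative Cgnl1 (-3.31) were lower. In the second step 7 were higher and 2 lower (6 and 2 with total UMIs), with Amotl2 higher again (log2 2.65, adjusted p = 5.77e-15). Cgnl1, in turn, averaged 84.7 ± 14.7 CPM in follicle cells and 0.274 ± 0.0866 in basal cells (log2 7.87, adjusted p = 4.99e-10). In spinous, granular and Langerhans cells it was at 0. The gene thus passed the low-count filter through follicle cells, the group where it was high. Its value of -3.31 sets a trace in basal cells against 0 and depends on the prior count.

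Of 14 polarity genes, 8 were higher and 1 lower in the first step (6 and 3 with total UMIs), with Llgl2 (log2 2.05) and Crb3 (1.96) up and Pard3b (-2.77) down. In the second step 4 were higher and 2 lower, but 3 and 10 with total UMIs. Pard3, which F11r binds, was higher by log2 2.37. Of 7 adherens junction genes, 4 were higher and 1 lower in the first step (3 and 2 with total UMIs), with Jup (plakoglobin) up by log2 2.02 and Cdh3 (P-cadherin) at -3.01. In the second step only Ctnnb1, named after its values were seen, was higher (log2 0.52, and -0.16 with total UMIs, where none was higher), and 5 were lower (6 with total UMIs), Cdh1 (E-cadherin) at -0.86 among them.

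**Figure D4:**
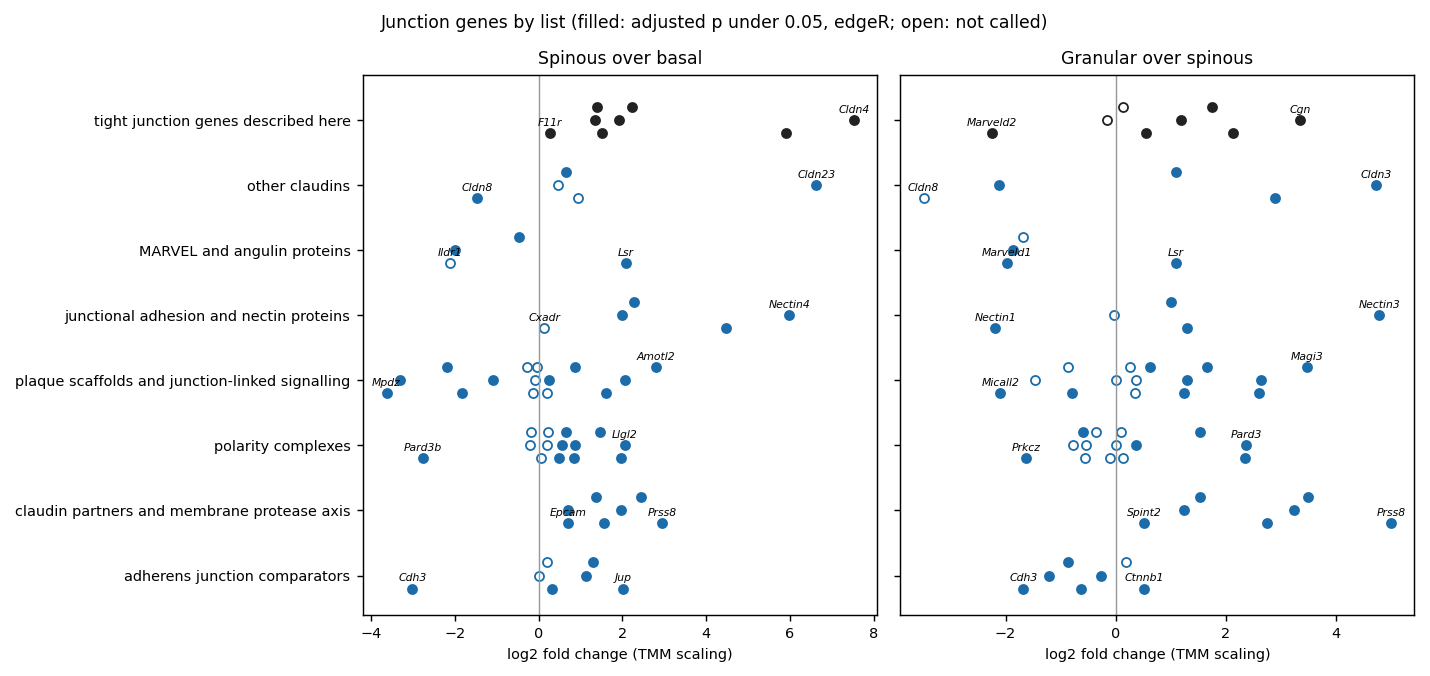
Log2 fold changes with TMM scaling (x axis) of the genes described and of 7 lists of junction genes (rows), for spinous over basal and granular over spinous cells; each point is a gene, filled where called, and the lowest and highest gene of a row is named. Claudin partners and proteases lie to the right of 0 in both panels, although Spint2 in granular over spinous cells turns to -0.15 with total UMIs.

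The genes whose profiles most resembled those of the 9 were sought over 24 library-by-bin profiles, which share libraries and depth, among 4897 genes with a mean of 20 CPM or more, by Pearson's r of log2(CPM + 10). This is a description. Cgn resembled Elovl1 (r = 0.990), Slc46a2 and Gdpd3 (both 0.989), and Cldn4 resembled Psapl1 (0.979), Slc6a20a (0.975) and Dkkl1 (0.970). Marveld2 was closest to Fam83b (0.969), Kazald1 (0.969) and Acad9 (0.967), and Tjp3 to Tmem41a (0.972), Myo18a (0.964) and Ermp1 (0.961). The closest to Cldn1 was Epb41 (0.965), to Tjp1 Prom2 (0.956), to Ocln Kdm7a (0.947), and to F11r Lamp1 (0.933).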

How the data were processed

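The authors deposited, per the file headers, raw UMI counts per gene and cell, 1 matrix per library, made with Cell Ranger 3.1.0 on mm10 per the submitters' processing notes. Aligner settings, the annotation version and the use of strand are not given in the sources used here. The matrices were already limited to called cells, with lowest totals of 523, 502 and 500 UMIs. Coordinates come from GENCODE M21 (GRCm38), and promoters from RefSeq (GRCm38.p6), in which all 9 genes had an entry. UMIs collapse amplification copies. Exact bounds on shares of cells cover counting error only. Intervals of fold changes come from the edgeR fit and also include the spread between libraries that it estimates.

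A cell was kept if 500 genes or more were detected in it and mitochondrial UMIs made up no more than 10%. A cell that met several gates (81 cells) took the first of Langerhans, follicle, granular, spinous and basal. Scrublet (scanpy 1.11.5) marked 30 doublets, at 0.8% expected per 1000 cells; they were removed only as an alternative. Counts were summed per library and group with at least 10 cells, and all groups entered 1 fit in edgeR 4.0.16 (R 4.3.3): TMM scaling, filterByExpr against low counts, the quasi-likelihood test, library as a block, Benjamini-Hochberg over all genes tested, and calls at an adjusted p of 0.05. Cycling and other basal cells had a fit of their own. The block pairs groups by construction, since each library gives every group, apart from Langerhans cells, which replicate 1 lacks. Deviations of the same library from 2 group means, taken over 10837 genes (not independent of each other), correlated with r of 0.372 to 0.403 (spinous with basal), 0.205 to 0.299 (granular with spinous), 0.124 to 0.174 (granular with basal), 0.0027 to 0.251 (follicle with basal) and 0.0053 (Langerhans with basal). The test was tried on simulated counts first.

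Alternatives were other filters, gates, scalings, DESeq2 1.42.0, thinning to 2000 UMIs, no block, and each library left out (without replicate 2 or 3, Langerhans cells are 1 library, assumed to vary like the other groups). The 9 genes and all lists were chosen with earlier results of these data known. In the wider list, at most 3 called genes of largest absolute log2 fold were named per list and comparison, and 2 more are marked in the text. Some genes that the rules would name are not reported here. A planned comparison of protein sequences was not made here.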

Additional observations from a re-analysis of the deposited data

Results flagged for a closer look

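Cells that no gate took, and barcodes that failed the filters on genes or mitochondrial share, entered no comparison, yet held UMIs of the tight junction genes above the level that 3 UMIs would give, pooled over libraries. In the 143 ungated cells Cldn1 had 111.6 CPM, Cldn4 35.5 and F11r 66.0. In the 738 failed barcodes, with a median of 1363 UMIs, Cldn1 had 114.6, Cldn4 109.2, Cgn 78.2, Tjp3 51.2, F11r 41.8, Tjp1 24.3, Marveld2 19.6 and Ocln 13.5 CPM. All these values lie between the basal and the granular or spinous means of the same gene, except F11r in failed barcodes, which was below the granular mean of 44.9. What these barcodes hold was not tested.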

How the results depend on the processing

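Of 727 log2 folds of single genes under 16 alternatives, 648 kept direction and side of the threshold, 35 lost a call, 10 gained one and 34 changed sign; no cause was tested, apart from those named here. One alternative, leaving out follicle and Langerhans cells with a suprabasal gate, was added after seeing the data. Without the library block, 2 F11r calls were lost: spinous over basal (log2 0.26, adjusted p = 0.150) and cycling over other basal (log2 -0.37, adjusted p = 0.0981). Counts of the tested genes that moved include the following. Granular over spinous had 0 lower when thinned (Marveld2 was then below the low-count filter) and 3 with total UMIs. Granular over basal had 0 lower when thinned, for the same reason, 2 with total UMIs and 0 to 1 with a library left out. Follicle over basal had 2 higher without cells of several gates, 1 with stricter gates and 2 thinned. Langerhans over basal had 1 higher thinned, 5 with DESeq2 and 1 to 3 with a library left out. Folds that changed sign follow, on the log2 scale. In spinous over basal, F11r was at -0.039 thinned and -0.11 with total UMIs. In granular over spinous, F11r was at -0.026 without the deepest cells, -0.0063 with stricter gates and -0.54 with total UMIs, Tjp1 at 0.052 with median-ratio factors and 0.056 with DESeq2, and Tjp3 at -0.14 with total UMIs. In granular over basal, F11r was at -0.65 with total UMIs. In follicle over basal, Ocln was at -0.50 thinned, and Marveld2 at -0.0098 without Scrublet doublets, -0.25 without cells of several gates, -1.32 with stricter gates, -0.18 without cells with a suprabasal gate and -0.28 to 0.33 with a library left out. Tjp1 there was at 0.45 with the 5% mitochondrial limit, 0.58 without cells of several gates and 0.44 thinned, and Tjp3 at -0.83 with stricter gates, -0.58 without cells with a suprabasal gate, -0.10 thinned and -0.32 to 0.70 with a library left out. In Langerhans over basal, F11r was at -0.0033 with 1000 genes, -0.076 without Scrublet doublets and -0.83 to 0.85 with a library left out, Tjp1 at -0.23 thinned, and Cldn4 at -5.89 to 6.31 with a library left out. Cgn there was at -4.88 without the deepest cells, -5.03 without cells of several gates, -5.04 without cells with a suprabasal gate, -3.29 thinned and -5.00 to 4.10 with a library left out, where negative values come from libraries with no UMI and depend on the prior count. In cycling over other basal, Marveld2 was at -0.66 to 0.062 with a library left out. Depth limits the follicle values of Ocln, Marveld2, Tjp1 and Tjp3, each with at most 15 UMIs.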

Other observations

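A small set of 43 cells with Krt79 at 0.1% or more of their UMIs, a gene of the upper hair follicle, had 207.4 CPM of Cldn1 and 115.5 of Cldn4, pooled over libraries. Krt79 is also among the 4 sebocyte markers used here, which summed to 5514 to 18668 CPM in these cells. Scd1 averaged 5867 CPM (0 to 9245 between libraries), Mgst1 2626 and Cidea 632.9. Whether sebaceous cells were among the 43 was not tested. The Cldn4 level of the 43 cells was 200.2, 75.0 and 110.8 in replicates 1, 2 and 3, from 13, 8 and 28 UMIs, and Cgn had 3 UMIs in all. These cells can also belong to the groups above and were not tested. Follicle cells that also met the basal gate had 6 Cldn4 UMIs in 75 cells, and follicle cells of no layer gate had 25 in 44 cells, or 11.6 and 100.6 CPM. The 21 T cells held 3 UMIs of the 9 genes in all, 1 each of Cldn1, Tjp1 and Cgn.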
